A study of Mus musculus with 10 samples.

Results

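mmu-miR-378a-3p and mmu-miR-378a-5p are the arms of the miR-378a hairpin, the products of its 3′ and 5′ sides. They were chosen by name, as 2 of the 1139 mature miRNA rows measured by small RNA sequencing of mouse heart, and no threshold on their values was applied. Their level, the ratio of the arms and their covariation with cardiomyocyte miRNAs were known to be of interest from earlier results of these data, so the p values below describe these libraries and are not independent evidence. The hearts came from male C57Bl6N mice that all underwent transverse aortic constriction, an operation that narrows the aorta so that the left ventricle pumps against a raised pressure, and were taken 1 week later. The 5 knockout libraries are from mice labelled CITED4 knockout, and the 5 control libraries from floxed mice, whose gene carries recombination sites. The labels name no Cre driver, no age and no pooling of hearts. Every heart was operated on, so these data hold no comparison with unoperated hearts. The libraries do not measure the Cited4 transcript, and the genotypes are as labelled.

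miR-378a lies within a gene for a transcriptional coactivator of mitochondrial genes, Ppargc1b (PGC-1β), and is made together with it. In heart and skeletal muscle the 3p arm is among the abundant miRNAs of the muscle cell. It is known to limit cardiomyocyte growth, through targets in growth factor signalling such as Igf1r and Grb2, and to restrain oxidative metabolism through Crat, a mitochondrial carnitine acetyltransferase, and Med13, a subunit of the Mediator complex. The 5p arm is the minor product and has been linked to the estrogen-related receptor pathway of energy metabolism. None of these target transcripts is measured by miRNA counts.

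To show which miRNAs the arms are compared with, the mature sequences of 3 sets are given 5′ to 3′ from RefSeq on GRCm38.p6, with the seed (bases 2 to 8) in capitals. The first set holds 2 miRNAs among the 5 that followed an arm most closely, miR-30c-5p for miR-378a-3p and miR-26a-5p for miR-378a-5p. Others that followed the arms closely, such as miR-133b-3p, are not printed. The second set holds the miRNAs made from introns of myosin heavy chain genes, and the third the miRNAs that ran most opposite to the arms.
miR-30c-5p: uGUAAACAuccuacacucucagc
miR-26a-5p: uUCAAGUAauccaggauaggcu
miR-208a-3p: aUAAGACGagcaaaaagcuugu
miR-208b-3p: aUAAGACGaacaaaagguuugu
miR-499-5p: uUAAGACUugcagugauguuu
miR-369-5p: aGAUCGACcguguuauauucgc
miR-434-3p: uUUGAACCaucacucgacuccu
miR-379-5p: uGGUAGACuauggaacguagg
miR-410-3p: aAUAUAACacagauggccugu
miR-34c-3p: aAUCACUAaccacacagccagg
miR-208a-3p and miR-208b-3p have the same seed, and the other 8 seeds are each seen once in this set. miR-208a-3p comes from the Myh6 locus on chromosome 14 (54949072 to 54949093, minus strand) and miR-208b-3p from the Myh7 locus beside it (54975710 to 54975731, minus strand). miR-369-5p, miR-434-3p, miR-379-5p and miR-410-3p lie on the plus strand of chromosome 12, between 109594565 and 109743784, in the imprinted Dlk1-Dio3 region.

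Library totals ran from 7526091 to 18369483 counts, and a library detected 678 to 785 of the 1139 miRNAs. The knockout libraries were deeper on average, at 13090700 ± 4480300 counts against 9936090 ± 1484040 in controls (SD, n = 5 each). The difference was less than the SD in knockouts and more than that in controls (p = 0.24, two-sided exact permutation test). The cardiomyocyte identity of the tissue was visible in each library: miR-1a-3p, the most abundant muscle miRNA, took 24.8% to 39.3% of all counts. Levels are given as CPM, counts relative to a library total scaled by TMM, a method that sets the bulk of miRNAs level between libraries. Small RNA counts are not a function of length, so levels of different miRNAs are compared only as reads, and ligation bias between sequences is not corrected.

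miR-378a-3p was one of the most abundant miRNAs of the pressure-loaded heart. It took 4.79%, 4.79%, 9.92%, 6.11% and 7.07% of the counts in control replicates 1 to 5, and 4.27%, 3.45%, 4.83%, 7.11% and 4.10% in knockout replicates 1 to 5. Its rank by count was between 2 and 7 in the 10 libraries. It was the second most abundant row, after miR-1a-3p, in control replicates 3, 4 and 5 and in knockout replicate 4. With 307083 to 844683 counts behind each value, counting error is small beside the differences between libraries. miR-378a-5p took 0.0275% to 0.0719% of the counts and ranked between 59 and 102.

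In CPM, miR-378a-3p was at 42470, 48935, 87372, 77360 and 86211 in control replicates 1 to 5. In knockout replicates 1 to 5 it was at 35061, 30170, 53334, 72385 and 41264 CPM. Control replicates 3, 4 and 5 and knockout replicate 4 were high, the other 6 libraries were lower, and the groups overlapped. The control mean was 68470 ± 21264 CPM and the knockout mean 46443 ± 16894 CPM (SD, n = 5 each), and 4 of 5 knockout libraries were below the control mean. The fitted knockout level was 0.678 of the control level. On the log2 scale this was -0.56 ± 0.27 (SE), and its 95% interval ran from -1.15 to 0.03. This difference did not pass edgeR's quasi-likelihood test (adjusted p = 0.64 over the 457 miRNAs tested).

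miR-378a-5p, the minor arm, was at 409, 407, 633, 706 and 835 CPM in control replicates 1 to 5. In knockout replicates 1 to 5 it was at 297, 241, 448, 577 and 360 CPM. The same 4 libraries were highest, and knockout replicates 3 and 4 lay within the control range. The means were 598 ± 188 CPM and 385 ± 132 CPM (SD, n = 5 each), with all 5 knockout libraries below the control mean. The fitted knockout level was 0.643 of the control level. On the log2 scale this was -0.64 ± 0.26 (SE), and its unadjusted 95% interval, from -1.20 to -0.08, lay below 0. It ranked 11 of 457 by p and did not pass after adjustment (edgeR's quasi-likelihood test, adjusted p = 0.64).

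Read against the whole table, neither arm was called. edgeR's quasi-likelihood test called 0 of 457 miRNAs at an adjusted p of 0.05 (0.00%), while 29 of 457 (6.35%) had an unadjusted p under 0.05, of which miR-378a-5p was one. Neither DESeq2 nor limma-voom called any miRNA, and their counts under an unadjusted 0.05 were 45 of 1105 and 23 of 457. That count of 29 changed with each single library left out, where 462 to 469 miRNAs were tested. It was 28 without knockout replicate 3 and 38 without control replicate 2. It was 84 when control replicate 1 was left out and 65 without knockout replicate 4. It was 16, 10 and 6 without control replicates 3, 4 and 5 in turn, and 8, 13 and 18 without knockout replicates 1, 2 and 5. A lower fitted level in knockout was found for 214 of 457 miRNAs (46.8%), so a lower level alone does not set the arms apart. The median log2 fold change of all tested miRNAs was 0.03 with TMM and 0.14 with library totals only. The arms had log2 fold changes of -0.46 and -0.52 with library totals.

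The spread of miR-378a-3p within a group was wide for so abundant a miRNA. Its pooled SD within groups was 0.49 in log2 units, while the 50 most abundant miRNAs had a median of 0.32, and it was the fifth widest of them. Over all 457 tested miRNAs the median SD was 0.39. Nothing in the labels says whether the libraries of a group are separate animals, so this spread may be technical.

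**Figure D1:**
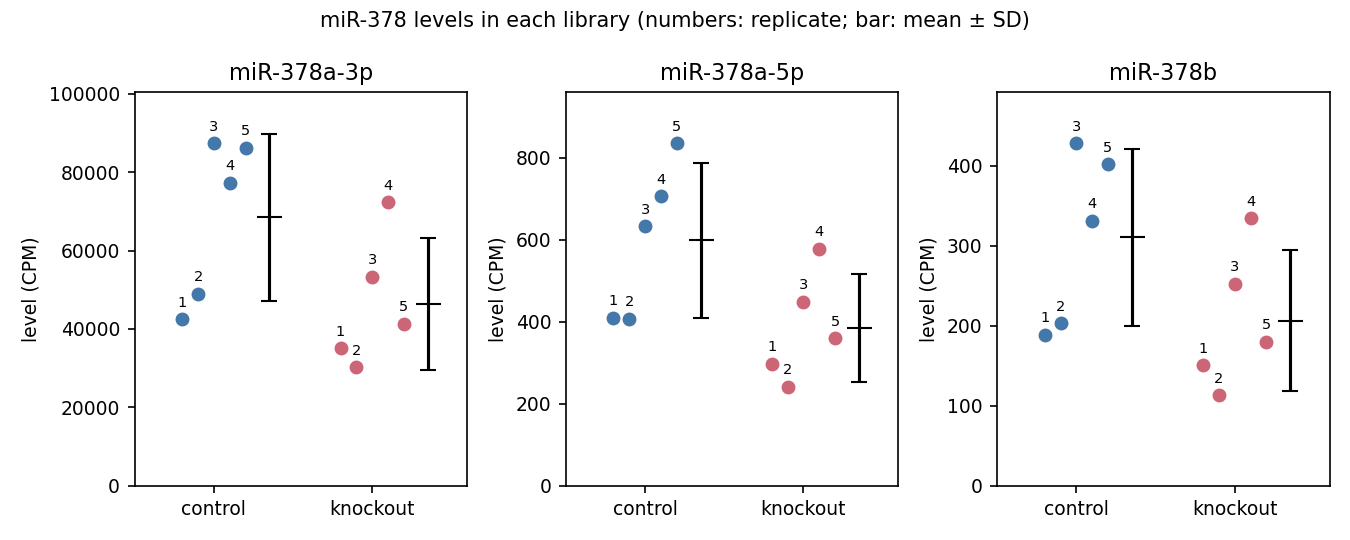
Levels of miR-378a-3p, miR-378a-5p and miR-378b in CPM (linear vertical axes from 0) in each of the 5 control and 5 knockout libraries. Numbers are replicates, and the black bars give the group mean ± SD. Control replicates 3, 4 and 5 and knockout replicate 4 are the highest libraries for both arms, and the groups overlap.

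miR-378b is the only other row of the miR-378 family in these tables. It is annotated as a separate hairpin on chromosome 11 (88352773 to 88352864, plus strand), and its mature sequence is nearly that of miR-378a-3p. Reads of the one may therefore have been counted for the other, and its level is uncertain. It was at 188 to 428 CPM in controls and 113 to 334 CPM in knockouts, and its log2 fold change was -0.59 ± 0.31 (SE), which did not pass (edgeR's quasi-likelihood test, adjusted p = 0.64). For each read of miR-378b there were 204 to 267 reads of miR-378a-3p. In shares of both rows, miR-378b had between 0.373% (95% Wilson interval 0.352% to 0.396%) in knockout replicate 2 and 0.487% (0.472% to 0.503%) in control replicate 3. Its level followed that of miR-378a-3p with a Pearson r of 0.99 over the 10 libraries, the highest of 447 rows compared. How far shared reads account for this was not tested.

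The arms kept a nearly fixed ratio. miR-378a-3p gave 104, 120, 138, 110 and 103 reads for each read of miR-378a-5p in control replicates 1 to 5, and 118, 125, 119, 125 and 115 in knockout replicates 1 to 5. As a share of both arms, 5p made up 0.872% ± 0.101 in controls and 0.824% ± 0.0320 in knockouts (SD, n = 5 each). Control replicate 3 had the lowest share, at 0.720% (95% Wilson interval 0.701% to 0.739%), and control replicate 5 the highest, at 0.959% (0.937% to 0.982%). These intervals cover counting error only and do not overlap, so the controls differed among themselves by more than counting error. The controls spanned all knockout values. On the log2 scale the ratio of 5p to 3p was 0.08 lower in knockout (two-sided exact permutation test, p = 0.41, smallest possible 0.0079). This was less than the SD in controls (0.18) and more than that in knockouts (0.056). Without control replicate 3 the difference was 0.14 (exact permutation test, p = 0.056). This ratio is formed within a library and does not depend on scaling.

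Among 136 hairpins with both arms tested, miR-378a was unequal and steady. Its pooled ratio of 117 reads of 3p for each read of 5p was the thirtieth most unequal in either direction, where the median hairpin gave 14.4 reads of its major arm for each read of the minor. Its log2 arm ratio had an SD of 0.13 over the 10 libraries, the second smallest, against a median of 0.40. The levels of the arms had a Pearson r of 0.97, the second highest, against a median of 0.51. The minor arm of miR-378a has 53160 counts in all, more than many minor arms, and part of the spread of other hairpins is counting error. Both arms had lower fitted levels in knockout for 48 of the 136 hairpins, both higher levels for 55, and arms of opposite sign for 33.

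**Figure D2:**
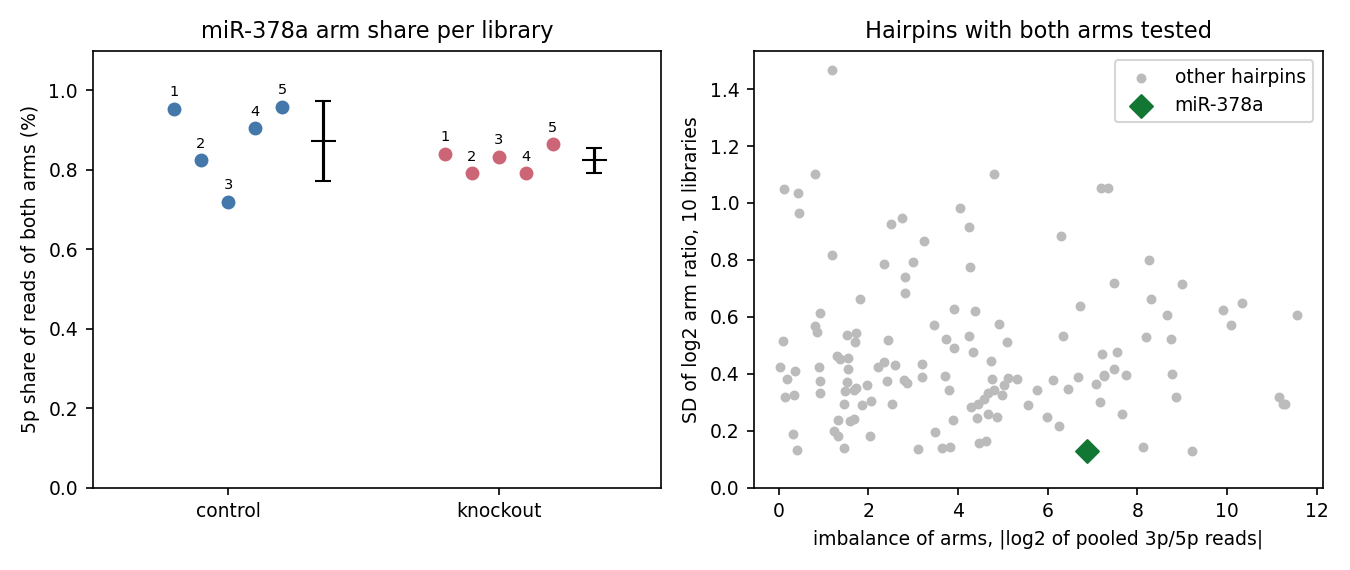
Left, the share of 5p among reads of both miR-378a arms in percent for each library, with the group mean ± SD as black bars. Right, for 136 hairpins, the imbalance of the arms (absolute log2 of pooled reads) against the SD of the log2 arm ratio over 10 libraries, where miR-378a, at an SD of 0.13, lies near the lower edge.

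Over the 10 libraries the levels of the arms rose and fell with each other (Pearson r = 0.97, permutation p = 2e-05, Spearman rho = 0.95, permutation p = 0.00016). With each value centred on its group mean r was 0.96, and without the 2 libraries farthest from the median of miR-378a-3p it was 0.98. The levels of miR-378a-3p had their widest gap, 0.44 on the log2 scale, between knockout replicate 3 and knockout replicate 4, which left 4 libraries above it and 6 below. Because such a gap can carry a correlation, r was also taken over the 6 lower libraries alone, where it was 0.96 (exact permutation test, p = 0.0028, adjusted p = 0.0076 over the 19 relations taken in these 6 libraries). These 6 are set by the level of miR-378a-3p itself, which narrows its range. The 19 relations include miR-378b, miR-30c-5p and miR-369-5p, whose r over all 10 libraries was among the most extreme of 447 rows. Their small p values can lower the adjusted p of the others.

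Covariation with cardiomyocyte miRNAs was examined for 7 miRNAs and both arms, 14 pairs in all. Of these, 9 passed an adjusted p of 0.05 by permutation. The share of all compared rows that would pass the same test is not given here. By r with miR-378a-3p, miR-133b-3p ranked 3 of 447 rows, miR-133a-3p 4, miR-499-5p 49 and miR-208a-3p 55. miR-1a-3p ranked 90, miR-133a-5p 116 and miR-208b-3p 206. The leukocyte miR-150-5p ranked 24 and the erythroid miR-144-5p 30, so a high r was not particular to cardiomyocyte miRNAs. The levels compared come from the same libraries and share their depth, scaling and mix of cells, whose part in these correlations was not tested. With miR-378a-3p the log2 library total had r = -0.23, the percent of miR-1a-3p in a library r = 0.69 and the log2 TMM factor r = -0.61 (permutation, adjusted p = 0.64, 0.086 and 0.12 over 9 such relations). With miR-378a-5p the TMM factor had r = -0.70 (permutation, adjusted p = 0.086). The levels in CPM are divided by this factor, so a negative r with it is partly built in. In bulk tissue, fewer cells of a type and less RNA per cell cannot be told apart. The closest were the miR-133 miRNAs, which repress smooth muscle and cell cycle genes in muscle. miR-133b-3p had r = 0.99 with miR-378a-3p (permutation p = 1e-05, the smallest these permutations can give, adjusted p = 4.67e-05) and a Spearman rho of 1.00, so both ordered the 10 libraries alike. It was at 291, 304, 543, 476 and 536 CPM in control replicates 1 to 5 and at 240, 215, 336, 387 and 279 CPM in knockout replicates 1 to 5. As with miR-378a-3p, control replicates 3, 4 and 5 and knockout replicate 4 were the highest. miR-133a-3p had r = 0.97 (permutation p = 1e-05, adjusted p = 4.67e-05) and also a rho of 1.00. In the 6 lower libraries r was 0.99 for miR-133b-3p and 0.93 for miR-133a-3p (exact permutation p = 0.0014 each, adjusted p = 0.0066). miR-133a-5p, the rare other arm at 9.91 ± 2.68 and 7.99 ± 3.20 CPM, had r = 0.53 and did not pass (permutation p = 0.12, adjusted p = 0.15).

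miR-499-5p, made from an intron of the myosin gene Myh7b, had r = 0.84 with miR-378a-3p (permutation p = 0.0026, adjusted p = 0.0062) and rho = 0.93. It was at 1820 to 4418 CPM over the libraries, and in the 6 lower ones r was 0.94 (exact permutation p = 0.0069, adjusted p = 0.015). miR-208a-3p, from the adult myosin gene Myh6, had r = 0.79 (permutation p = 0.0080, adjusted p = 0.016) and rho = 0.78. Its levels were 286, 422, 932, 685 and 692 CPM in control replicates 1 to 5 and 303, 508, 468, 571 and 306 CPM in knockout replicates 1 to 5. In the 6 lower libraries r was 0.03 (exact permutation p = 0.95, adjusted p = 0.95). These include knockout replicate 2, which had the lowest miR-378a-3p but 508 CPM of miR-208a-3p, and without it r over the other 9 libraries was 0.96 (exact permutation, adjusted p = 0.00033). miR-1a-3p, the leading muscle miRNA, had r = 0.66 (permutation p = 0.041, adjusted p = 0.058) and rho = 0.67, and did not pass. Control replicate 3 lowered that value: it had the highest miR-378a-3p, at 87372 CPM, with 243301 CPM of miR-1a-3p against 463625 and 497444 in control replicates 5 and 4. Without control replicate 3 r was 0.92 (exact permutation p = 0.0010, adjusted p = 0.0021). With any other library left out r was 0.57 to 0.69 and did not pass (exact permutation), and with library totals only it was 0.41 (permutation, adjusted p = 0.34).

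miR-208b-3p, made from the fetal myosin gene Myh7 and raised in hypertrophy, had r = 0.02 with miR-378a-3p (permutation p = 0.95, adjusted p = 0.95). With both centred on their group means r was 0.37 and did not pass (permutation within groups, adjusted p = 0.34). It was at 202, 163, 244, 155 and 143 CPM in control replicates 1 to 5 and at 151, 226, 276, 296 and 204 CPM in knockout replicates 1 to 5. Its seed is that of miR-208a-3p, printed above, while the correlations of the pair with miR-378a-3p were 0.02 and 0.79, a difference that was not tested. Ratios within a library, which need no scaling, were formed between miR-378a-3p and each of the 7 cardiomyocyte miRNAs. That to miR-208b-3p was 8.53 ± 0.60 on the log2 scale in controls and 7.62 ± 0.34 in knockouts (SD), 0.90 lower in knockout (exact two-sided permutation test, p = 0.024, adjusted p = 0.17 over the 7 ratios). That to miR-133b-3p was 7.30 ± 0.06 and 7.28 ± 0.16. The other 5 ratios were lower in knockout by 0.12 to 0.37, with adjusted p from 0.44 to 0.80 by exact permutation.

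miR-378a-5p gave the same order at its upper end. Its r was 0.97 with miR-133b-3p, 0.95 with miR-133a-3p and 0.88 with miR-499-5p (permutation, adjusted p = 4.67e-05, 0.00014 and 0.00073). It was 0.75 with miR-1a-3p and 0.69 with miR-208a-3p (permutation, adjusted p = 0.026 and 0.045). Without the 2 libraries farthest from its median the relation to miR-1a-3p had r = 0.57 (exact permutation, adjusted p = 0.20), so its call depended on those, in a narrower range. Without control replicate 3 r was 0.90 (exact permutation, adjusted p = 0.0023). The call was also lost with library totals only (r = 0.53, permutation, adjusted p = 0.18) and when control replicate 4, control replicate 5, knockout replicate 1 or knockout replicate 2 was left out (r from 0.67 to 0.70, exact permutation, adjusted p from 0.064 to 0.080). When single libraries were left out, the relation to miR-208a-3p kept its call only without control replicate 1 or knockout replicate 2. With any of the 8 other libraries left out r was 0.63 to 0.69 (exact permutation, adjusted p from 0.067 to 0.11). Without knockout replicate 2 this r was 0.88 (exact permutation, adjusted p = 0.0062). In the 6 lower libraries, which hold knockout replicate 2, it was -0.19 (exact permutation, adjusted p = 0.75). miR-208b-3p, at r = -0.11, and miR-133a-5p, at r = 0.52, did not pass (permutation, adjusted p = 0.81 and 0.15).

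**Figure D3:**
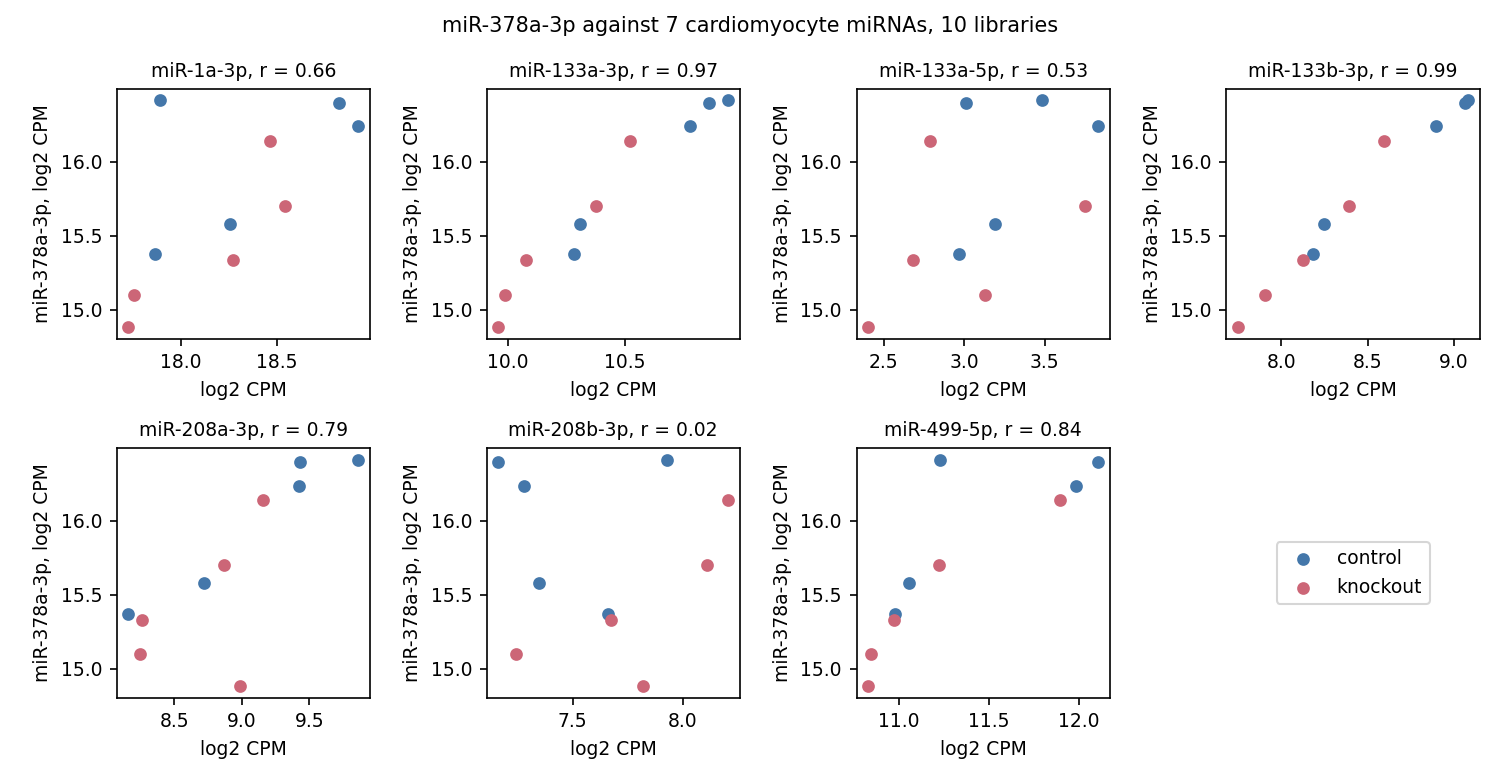
Level of miR-378a-3p (vertical, log2 CPM) against that of each of 7 cardiomyocyte miRNAs (horizontal, log2 CPM), 1 point for each of 5 control and 5 knockout libraries. The points for miR-133b-3p (r = 0.99) lie close to a line, and those for miR-208b-3p (r = 0.02) are scattered.

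Over all rows, after rows with identical counts were counted once, 447 miRNAs were compared with each arm by Pearson r of log2 CPM over the 10 libraries, as a description. For miR-378a-3p the 5 highest were miR-378b (0.99), miR-30c-5p (0.99), miR-133b-3p (0.99), miR-133a-3p (0.97) and miR-486a-5p (0.97), whose counts are identical to those of miR-486b-5p. The 3 lowest were miR-369-5p, miR-434-3p and miR-379-5p, at -0.98 each, all from the Dlk1-Dio3 region. For miR-378a-5p the 5 highest were miR-133b-3p, miR-378b, miR-30c-2-3p, miR-133a-3p and miR-26a-5p, from 0.97 to 0.95. The 3 lowest were miR-410-3p, miR-434-3p and miR-34c-3p, at -0.96 each. Extreme values were common: 24 of 447 miRNAs had an r above 0.9 with miR-378a-3p and 24 below -0.9, around a median of -0.09. With library totals only, the 5 highest of miR-378a-3p had r from 0.91 to 0.99 and the 3 lowest from -0.82 to -0.79.

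A measure that needs no scaling kept miR-378b, miR-133b-3p and miR-486a-5p among its closest 5, but not miR-30c-5p or miR-133a-3p. The SD over libraries of the log2 ratio of a miRNA to miR-378a-3p was smallest for miR-378b (0.11), miR-133b-3p (0.12), miR-486a-5p (0.14), miR-30e-5p (0.14) and miR-29c-3p (0.15), against a median of 0.68 over the 447. The last pair was named after its values were seen. By this measure miR-133a-3p stood at position 10, miR-499-5p at 28, miR-208a-3p at 47, miR-1a-3p at 79, miR-133a-5p at 114 and miR-208b-3p at 214.

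Lists of miRNAs for the cell types of the heart were set beside miR-378a-3p by r and by fold change, and 0 members of any list passed edgeR's test. The cardiomyocyte list had r from 0.02 to 0.99 with a median of 0.79, and a lower fitted level in knockout for 6 of 7 members (median log2 fold change -0.34). Over all 457 tested miRNAs 214 (46.8%) had a lower fitted level. Members of a list come from the same libraries, so their directions are not independent. All 5 miR-30 family members, abundant in heart muscle, had r from 0.92 to 0.99 and lower fitted levels (median -0.52), such as miR-30a-5p with a control mean of 29529 ± 6892 CPM and a knockout mean of 19295 ± 5570 CPM. The 4 fibroblast and mesenchymal miRNAs ran opposite, with r from -0.97 to -0.87, and higher fitted levels in knockout (median 0.39). With library totals only, their r ran from -0.85 to -0.71. miR-21a-5p, a miRNA raised in cardiac fibrosis, was at 85648, 81458, 30717, 35619 and 29418 CPM in control replicates 1 to 5 and at 83320, 108149, 66385, 40161 and 88419 CPM in knockout replicates 1 to 5. The 4 libraries high in miR-378a-3p were the 4 lowest in miR-21a-5p. In the 6 other libraries r was -0.87 (exact permutation p = 0.029, adjusted p = 0.046). That adjusted p is close to the threshold and is lowered by the relations of extreme r among the 19, so this pass is not firm. The summed CPM of the 4 mesenchymal miRNAs ran from 38600 to 108890 in controls and from 52492 to 132710 in knockouts. Its part in the difference of miR-378a between groups was not tested.

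Markers of the other cell types differed from list to list in how they followed miR-378a-3p. The 2 endothelial arms, miR-126a-3p and miR-126a-5p, had r = 0.48 and 0.66, and with library totals only r for miR-126a-3p turned to -0.02. Smooth muscle miRNAs miR-143-3p and miR-145a-5p had r = 0.15 and 0.71, the first turning to -0.12 with library totals only. Of 4 leukocyte miRNAs, 2 had a positive r, miR-150-5p at 0.90 and miR-142a-5p at 0.61, and 2 a negative r, miR-223-3p at -0.46 and miR-142a-3p at -0.65. All members of this list are named to show both directions. The erythroid arms miR-144-3p and miR-144-5p had r = 0.82 and 0.88, and lower fitted levels in knockout (median -0.49), while no row was named miR-451a. The summed erythroid level ran from 279 to 1105 CPM in controls and from 214 to 865 CPM in knockouts. None of these marker sums was at 0, and their part in the result was not tested.

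**Figure D4:**
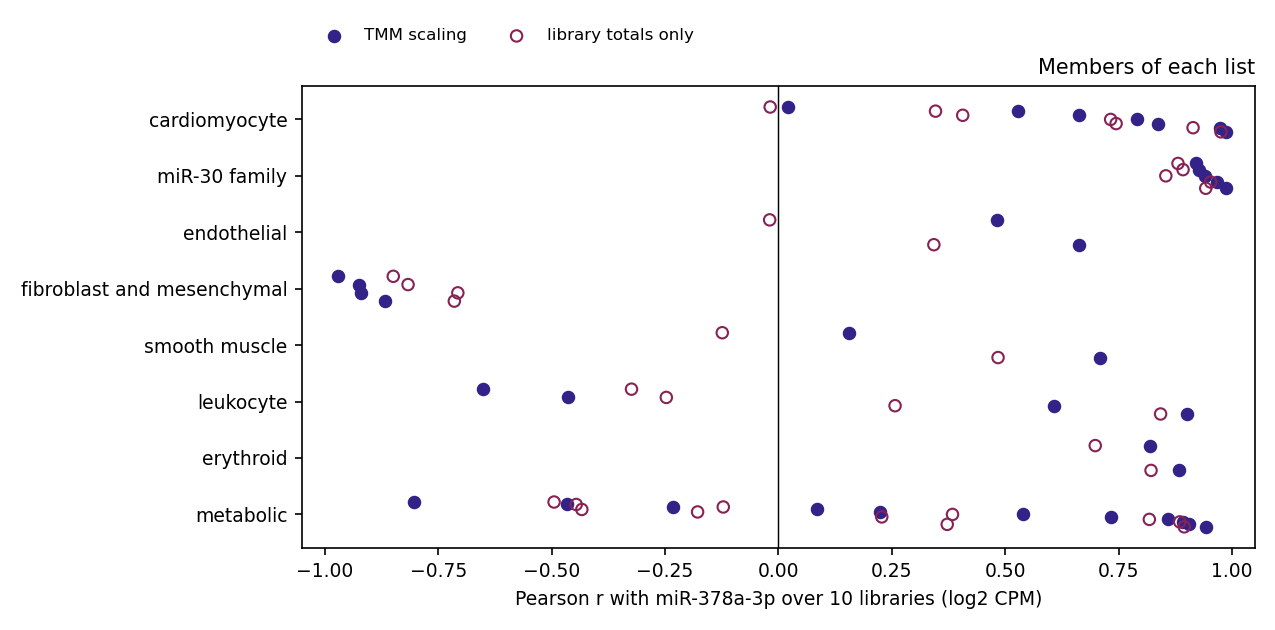
Pearson r of each list member with miR-378a-3p over 10 libraries (horizontal), by list (vertical), with TMM scaling as filled and library totals only as open points. The miR-30 family lies between 0.92 and 0.99 and the fibroblast and mesenchymal miRNAs between -0.97 and -0.87 with TMM scaling.

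Other miRNAs linked to mitochondria, lipid metabolism or the PGC-1 coactivators formed a list of 13, of which 11 were tested. None passed edgeR's test, 9 had a lower and 2 a higher fitted level in knockout, and the median log2 fold change was -0.15. Over all 457 tested miRNAs 214 (46.8%) had a lower fitted level. They did not move as 1 block with miR-378a-3p, with r from -0.80 for miR-210-3p, a hypoxia miRNA that acts on mitochondrial iron-sulfur assembly, to 0.94 for miR-181c-5p, which is known to act inside mitochondria. Both of these were singled out after their values were seen. The most abundant, miR-27b-3p and miR-148a-3p, had r = 0.09 and 0.22, the signs turning to -0.43 and -0.18 with library totals only. The control mean of miR-27b-3p was 11864 ± 852 CPM and its knockout mean 11485 ± 1085 CPM.

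The hairpin of miR-378a was annotated by GENCODE M21 on GRCm38, the build the submitters' processing notes name, on the minus strand of chromosome 18 (61397835 to 61397900). It lies in intron 1 of Ppargc1b (61298136 to 61400431, minus strand), 2500 bases from the start of the transcripts Ppargc1b-201 and Ppargc1b-203. A short gene of miRNA type, Gm25301 (61397813 to 61397925), overlaps it on the plus strand, and whether the counting used strand is not given in the sources used here. The next hairpins with tested arms were those of miR-145a and miR-143, 249925 and 251296 bases away on the same strand. miR-143-3p had a control mean of 30858 ± 2262 CPM and a knockout mean of 30307 ± 2671 CPM, with a log2 fold change of -0.03 ± 0.13 (SE). Its r with miR-378a-3p was 0.15, against 0.26 for miR-143-5p, 0.71 for miR-145a-5p and -0.35 for miR-145a-3p.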

How the data were processed

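Per the files' values, the authors deposited raw read counts for 1139 mature miRNAs in 10 libraries. The second table is a linear signal, the deposited counts divided by 1 factor per library, equal to the DESeq2 size factor within a relative tolerance of 1e-09 in all 10. Tools named, without roles, in the submitters' processing notes are cutadapt 1.10, STAR, Bowtie and DESeq2, with the build GRCm38. No source used here gives the miRNA annotation, the multi-mapping rule or the use of strand. Per the labels' protocols, a NEXTflex small RNA kit was used.

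The members and lists were chosen with earlier results of these data known. edgeR 4.0.16 (R 4.3.3) filterByExpr kept 457 miRNAs (99.99% of counts). The quasi-likelihood test used TMM and a single genotype term, with p adjusted by Benjamini-Hochberg over all 457 at a threshold of 0.05. It was tested on simulated data with changes larger than those of the arms, so its ability to find changes of their size was not tested. The log2 CPM has a prior count of 2, and the log2 arm ratio a pseudocount of 0.5 counts. Group means of single values were compared by exact permutation, and correlations over 10 libraries by 100000 permutations. Named miRNAs are both arms, miR-378b, the cardiomyocyte list, the 5 highest and 3 lowest r per arm, the 2 most abundant of other lists, and arms of hairpins within 500 kb, with exceptions marked. Libraries of a group differed by more than sampling noise (chi-square per degree of freedom at least 108 in controls and 210 in knockouts), so none was treated as a repeat deposit of another. Alternatives were other scalings, filters, DESeq2 1.42.0, limma 3.58.1, a block and leaving out each library.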

Additional observations from a re-analysis of the deposited data

Results flagged for a closer look

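The 51 values reported per library were examined in both groups, 102 groups in all, for a library far from the other 4. In 3 groups its gap to the nearest library was more than 0.71 of the range of the group, where chance gives about 1 in 20, or 5.1. Neither arm of miR-378a, their ratio nor miR-378b was among them. Knockout replicate 4 had 3815 CPM of miR-499-5p against 1820 to 2396 CPM in the other knockouts, and it was also the highest knockout for both miR-378a arms. The level of miR-143-3p was 25640 CPM in knockout replicate 3, while the other knockouts lay between 30910 and 32420. For miR-27b-3p, knockout replicate 1 was low at 9610 CPM, with the rest from 11560 to 12290.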

How the results depend on the processing

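The count of 0 called miRNAs was the same in all 18 alternative fits, with a smallest adjusted p from 0.15 to 0.99. Both arms kept a lower fitted level in knockout in all 18, with no call. Without each library in turn the log2 fold change ran from -0.76 to -0.42 for miR-378a-3p and from -0.81 to -0.47 for miR-378a-5p. The labels do not say what the shared replicate numbers mark, and same-number pairs correlated at 0.45, 0.38, -0.08, 0.40 and -0.12 in their deviations, with 4 of 10 libraries closest to their own number, so the numbers were not taken as pairs. With the replicate block the log2 fold changes were -0.57 and -0.64 (edgeR's quasi-likelihood test, unadjusted p = 0.0098 and 0.0011, adjusted p = 0.18 and 0.15), and 72 of 457 miRNAs had an unadjusted p under 0.05. That count was 102 of 1105 without a low-count filter, 16 of 282 with the stricter filter (10 CPM in 5 libraries) and 14 of 457 with library totals only. The arm ratio kept its sign in 13 of 13 alternatives, including the replicate block by sign flips (exact permutation, p = 0.44).

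Of the 14 arm pairs, 7 to 9 passed in each alternative, except that totals without miR-1a-3p left 12 pairs, of which 8 passed. The calls lost were those of miR-378a-5p with miR-1a-3p (6 alternatives) and with miR-208a-3p (10), and the cause was not tested. The r of miR-208b-3p was not called in any setting, and its sign turned. With miR-378a-3p it was 0.37 centred on group means, -0.018 with library totals only, -0.0031 without the 2 farthest libraries, and from -0.15 to 0.27 with 1 library left out. With miR-378a-5p it was 0.24 centred on group means, 0.32 without the 2 farthest libraries, and from -0.30 to 0.17 with 1 left out. The 95% interval had a median half-width of 0.53 on the log2 scale over all 457 miRNAs, and how much of it is depth was not tested.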
